A study of Mus musculus with 23 samples.

Results

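Mitochondrial ribosomal protein genes were followed through an RNA sequencing series of astrocytes. Members were chosen by a rule on names, set with earlier results of these data known. The rule covered every symbol of the count table made of Mrpl or Mrps, a number and at most 1 letter from a to c. Pseudogene names were left out. The rule took 77 of the 24411 symbols in the table, 48 Mrpl genes for the large subunit and 29 Mrps genes for the small subunit. The libraries came from 23 male mice at postnatal day 70, 1 mouse per library. All mice carried Aldh7a1 flox/flox on a C57BL/6NTac background and had received 4-hydroxytamoxifen on postnatal days 3 and 4. ConAstro mice were Cre-negative littermates and cKOAstro mice carried Slc1a3 CreER/+, a knock-in at the locus of the astrocyte glutamate transporter Slc1a3, so that recombination is limited to cells expressing Slc1a3 and 1 Slc1a3 allele is replaced. Each genotype was fed a control diet or, from postnatal day 21, chow containing sulforaphane (SFN), which activates the antioxidant regulator NRF2. On the control diet there were 4 ConAstro and 7 cKOAstro libraries, and on the SFN diet 5 SFN-fed ConAstro and 7 SFN-fed cKOAstro libraries. Cells were pulled from dissociated cortex with anti-ACSA-2 beads, which bind an astrocyte surface protein, and their poly(A) RNA was sequenced.

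The mitochondrial ribosome is a separate ribosome inside the organelle. Its RNAs are encoded by mitochondrial DNA, whereas all of its proteins are encoded in the nucleus, translated in the cytosol and imported. It makes only the few membrane subunits of the respiratory chain and ATP synthase that mitochondrial DNA encodes, so its proteins are needed wherever cells respire. Symbols do not always give the place of a protein: those of Mrps30 and Mrps18a sit in the large subunit, and the product of Mrps36 belongs to the 2-oxoglutarate dehydrogenase complex.

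Libraries held 46890715 to 391701247 counts. Aldh7a1, the deleted gene, was at 43.0 to 77.2 CPM (counts scaled to the library size) in 6 of 7 SFN-fed cKOAstro and 7 of 7 cKOAstro libraries and at 177 to 226 CPM in 4 of 4 ConAstro and 4 of 5 SFN-fed ConAstro libraries. Against their labels went 2 libraries, the 1 labelled SFN-fed ConAstro replicate 1 (55.7 CPM) and the 1 labelled SFN-fed cKOAstro replicate 2 (222 CPM). Both were kept as labelled. EdgeR counts, Mrpl sums and some fold changes resting on them are also given without them. DESeq2 and limma-voom results, and genes whose groups do not overlap, are given only with them. The 9 astrocyte markers summed to group means of 21548 to 25748 CPM, and the 6 oligodendrocyte markers to 25058 to 31869 CPM, so RNA of oligodendrocytes was present in every group. Slc1a3, 1 of the 9, averaged 2248 and 2507 CPM in cKOAstro and SFN-fed cKOAstro, against 4524 and 4279 CPM in ConAstro and SFN-fed ConAstro. Its level, with 1 allele replaced in cKOAstro mice, enters the astrocyte sums. In SFN-fed cKOAstro, oligodendrocyte markers ranged from 22667 to 52949 CPM and microglia markers from 240 to 2628 CPM, against 20433 to 28588 CPM and 721 to 2266 CPM in SFN-fed ConAstro. In a bulk sample, fewer cells of a type and less RNA per cell cannot be told apart.

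All 77 genes were expressed in every library, the lowest count of any member in any library being 106. Levels over the 4 groups ran from 2.16 CPM for Mrpl23 to 51.9 CPM for Mrpl9, with a median of 22.5 CPM for Mrpl and 19.8 CPM for Mrps genes. Levels were also taken per kilobase of 1 GENCODE M21 transcript per gene, to allow for length. By this measure the highest Mrpl genes were Mrpl41 (37.5 CPM per kb), Mrpl20 (36.6) and Mrpl42 (33.3). The highest Mrps genes were Mrps21 (36.7), Mrps34 (34.9) and Mrps18a (25.6), the last of which encodes a protein of the large subunit. The lowest were Mrpl47 (2.97 CPM per kb), Mrpl23 (3.12) and Mrpl1 (3.32) among Mrpl genes, and Mrps35 (3.67), Mrps25 (4.28) and Mrps17 (4.56) among Mrps genes. The medians of Mrpl and Mrps genes were 17.4 and 12.1 CPM per kb. By this measure, which rests on the transcript taken for each gene, members differed widely in mRNA level. Mrps17 and Mrps25, low per kilobase, have transcripts of 5.06 and 6.07 kb and stood at 23.1 and 26.0 CPM. For Mrps25, 58.2% of the transcript overlaps exons of Nr2c2 on the other strand.

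Within groups the members varied little between mice. The median within-group coefficient of variation was 9.47%, against 13.3% for the 8857 tested genes within the members' range of CPM and 15.6% for all 17302 genes tested in the fit over all groups. It was lowest for Mrps2 (4.78%), Mrpl1 (4.94%) and Mrpl37 (5.07%). Mrpl41 stood apart at 30.5%, the next highest being Mrps21 at 14.9%. It reached 52.5 CPM in cKOAstro replicate 2 and 44.3, 50.2 and 48.5 CPM in SFN-fed cKOAstro replicates 2, 5 and 6, and lay between 20.2 and 37.2 CPM in all other libraries.

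Summed over the 48 Mrpl genes, ConAstro libraries held 1053, 1067, 1121 and 1098 CPM, and SFN-fed ConAstro libraries 1099, 1009, 1047, 1074 and 994 CPM. The 7 cKOAstro libraries ranged from 997 to 1192 CPM with a median of 1178, and the 7 SFN-fed cKOAstro libraries from 1102 to 1397 CPM with a median of 1236. The lowest SFN-fed cKOAstro library thus lay above the highest SFN-fed ConAstro library, whereas both cKOAstro groups overlapped each other. The Mrps genes gave 539, 558, 576 and 571 CPM in ConAstro and 575, 519, 549, 540 and 514 CPM in SFN-fed ConAstro. They ranged from 520 to 610 CPM (median 596) in cKOAstro and from 565 to 720 CPM (median 628) in SFN-fed cKOAstro, so that here the SFN-fed groups overlapped, through the SFN-fed ConAstro library that goes against its label. In group means and SD, Mrpl genes stood at 1134 ± 71.3 CPM in cKOAstro (n = 7), 1044 ± 43.7 CPM in SFN-fed ConAstro (n = 5) and 1234 ± 108 CPM in SFN-fed cKOAstro (n = 7). Without the 2 libraries that go against their labels, the SFN-fed groups stood at 1031 ± 36.3 CPM (n = 4) and 1220 ± 112 CPM (n = 6).

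**Figure D1:**
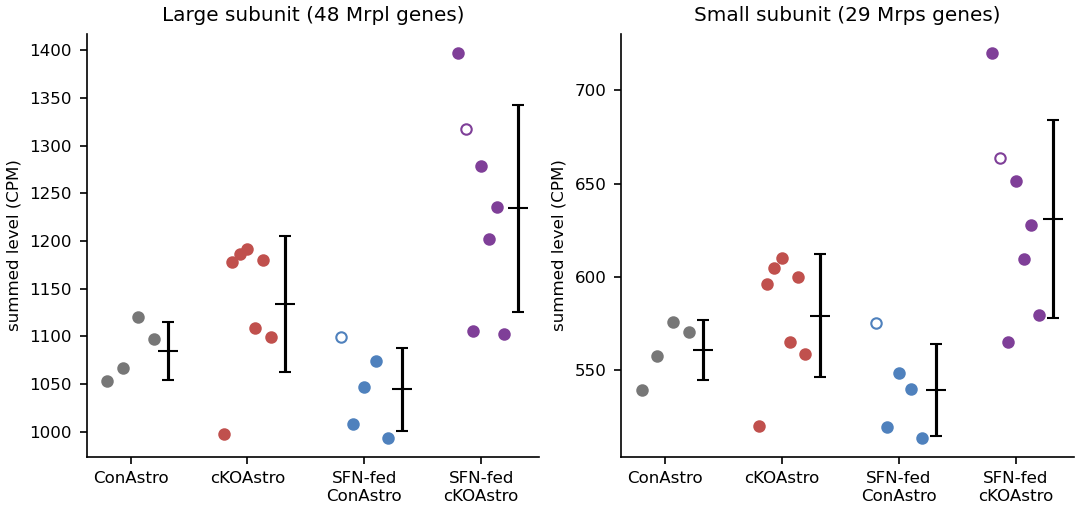
Summed CPM of the 48 Mrpl genes and of the 29 Mrps genes in each of the 23 libraries, by group; points are libraries, open symbols the 2 libraries against their labels, and bars the group mean with SD. The Mrpl sums of SFN-fed cKOAstro libraries (1102 to 1397 CPM) all lie above those of SFN-fed ConAstro libraries (994 to 1099 CPM).

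Members were high or low together in most libraries. Of the 77 group means, 75 were highest in SFN-fed cKOAstro and the other 2 in cKOAstro, and 61 were lowest in SFN-fed ConAstro and 16 in ConAstro. Neither this order nor the counts per library below were taken over all genes tested. Between the SFN-fed groups, 77.4% of other protein-coding genes with transcripts under 1 kb were higher, and 27.97% of those over 4 kb. Of the 77 members, 75, 76, 24, 71, 50, 69 and 29 were above their median over all libraries in SFN-fed cKOAstro replicates 1 to 7. The corresponding numbers were 29, 3, 14, 16 and 3 in SFN-fed ConAstro, 7, 11, 36 and 29 in ConAstro, and 4, 47, 70, 61, 28, 63 and 32 in cKOAstro. SFN-fed cKOAstro replicates 3 and 7 therefore lay within the range of the ConAstro libraries, and cKOAstro replicate 1 was near the lowest SFN-fed ConAstro libraries. SFN-fed cKOAstro replicate 1 held the highest value of 54 of the 77 genes, and the lowest values lay mostly in cKOAstro replicate 1 (24 genes) and SFN-fed ConAstro replicate 5 (23 genes). In SFN-fed cKOAstro replicate 1, other short genes (under 1 kb) were also high against long ones (over 4 kb), by 0.61 on the log2 scale. How far that shift holds for the members' values there was not tested.

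**Figure D2:**
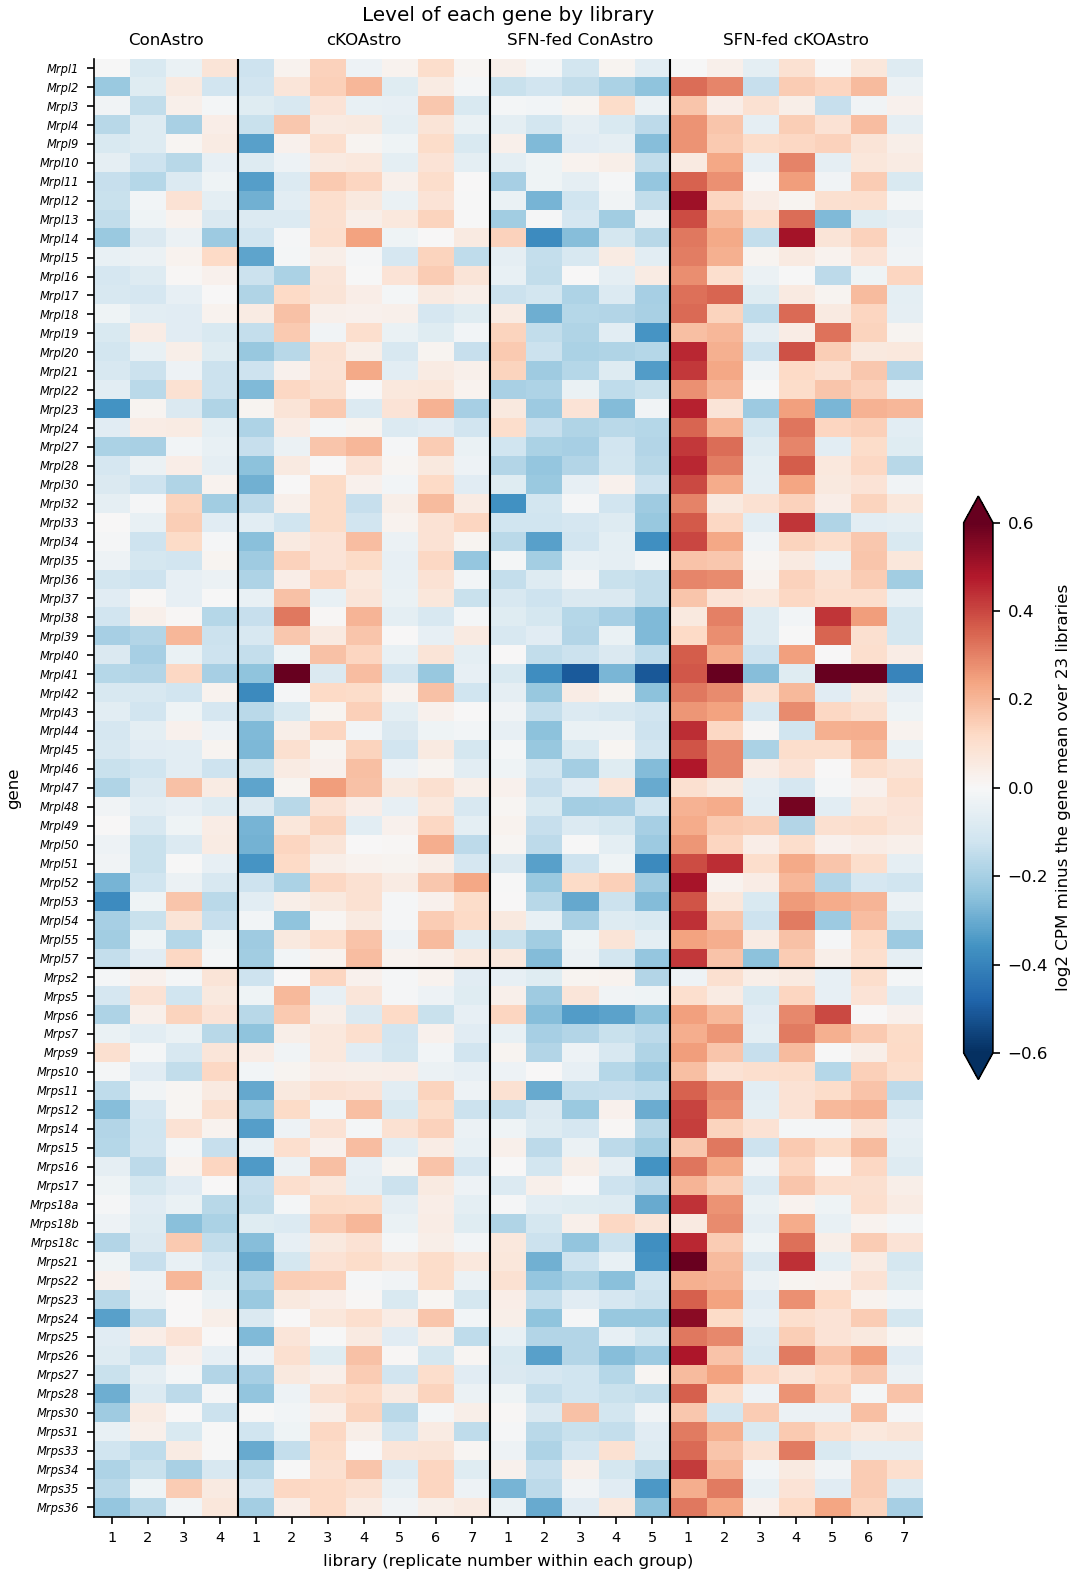
Heatmap of log2 CPM of each of the 77 members (rows, Mrpl above Mrps) in each of the 23 libraries (columns, by group), as the difference from the gene's mean over libraries. Whole columns share a colour: SFN-fed cKOAstro replicates 1 and 2 have 75 and 76 of 77 members above their median, SFN-fed ConAstro replicates 2 and 5 have 3 each.

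The largest contrast was the genotype difference on the SFN diet, which asks whether knockout astrocytes given SFN differ from control astrocytes given the same diet. All 77 genes were higher in the SFN-fed knockout group, with a median log2 fold change of 0.23 for Mrpl genes (1.17-fold) and 0.22 for Mrps genes (1.16-fold), against 0.007 for all 16672 genes tested. Single values ran from 0.016 for Mrpl3 to 0.67 for Mrpl41. None passed edgeR's quasi-likelihood test after Benjamini-Hochberg adjustment (lowest adjusted p = 0.195), and the same test called 0 genes in the whole table (0%). At an unadjusted p under 0.05, 57 members were higher (36 Mrpl and 21 Mrps) and 0 lower, where 11.4% of all genes tested were higher by that rule. DESeq2 called 10 of the 77 members at an adjusted p under 0.05, all higher, against 1.51% of all genes with an adjusted p: Mrpl2, Mrpl9, Mrpl22, Mrpl32, Mrpl34, Mrpl37, Mrpl51, Mrps7, Mrps26 and Mrps27. Limma-voom with sample weights called 51 (33 Mrpl and 18 Mrps), against 26.4% of all genes. For 9 members, all of the large subunit (Mrpl4, Mrpl9, Mrpl12, Mrpl17, Mrpl27, Mrpl32, Mrpl37, Mrpl46 and Mrpl50), every SFN-fed cKOAstro library was above every SFN-fed ConAstro library, which 0.864% of all genes showed. Without the 2 libraries against their labels, 76 of 77 were higher, 45 had an unadjusted p under 0.05, the median stayed at 0.22 and edgeR called 0 members. Leaving out SFN-fed cKOAstro replicate 3 alone gave 6 members called by edgeR (Mrpl2, Mrpl43, Mrpl51, Mrpl53, Mrps7 and Mrps26) among 701 genes, and leaving out any other single library gave 0. The series number of SFN-fed cKOAstro replicates 1, 2 and 7 is in no SFN-fed ConAstro name. That of SFN-fed ConAstro replicates 2 and 3 is in no SFN-fed cKOAstro name. In these libraries, whatever the numbers stand for cannot be told apart from genotype. In libraries with numbered names alone, 76 members were higher and 41 had an unadjusted edgeR p under 0.05 (median 0.23). With a covariate for numbered names, 52 had such a p. Markers of other cell types differed in the same contrast. Of these, 6 of 6 oligodendrocyte markers were higher (median log2 fold change 0.28). In contrast, 0 of 6 microglia (-0.61), 0 of 5 endothelial (-0.68), 0 of 5 mural (-0.48) and 0 of 4 fibroblast markers (-0.76) were higher. The astrocyte markers, which include the knock-in gene Slc1a3, were divided (4 of 9 higher, median -0.031). The part of all these markers in the values of the mitoribosomal genes was not tested.

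In the small subunit, the lowest p belonged to Mrps7, the counterpart of a bacterial protein that binds the small ribosomal RNA. Its level was 42.9, 38.5, 39.1, 40.4 and 39.6 CPM in SFN-fed ConAstro and 42.4 (lowest), 51.3 (median) and 54.9 CPM (highest) in SFN-fed cKOAstro. Only SFN-fed ConAstro replicate 1, which goes against its label, reached into the range of the other group. The log2 fold change was 0.32 ± 0.068 (SE, adjusted p = 0.195 in edgeR, as for the other genes of this and the next paragraph, and DESeq2 adjusted p = 0.0134), although 12.5% of the Mrps7 transcript overlaps exons of Gga3 and Mif4gd on the other strand. Mrps26, a protein found only in mitochondrial ribosomes, stood at 29.6, 25.2, 28.0, 26.4 and 27.2 CPM against 29.5, 35.6 and 44.2 CPM (lowest, median and highest), a log2 difference of 0.40 ± 0.098 (DESeq2 adjusted p = 0.0313). Mrps6, of whose transcript 18.8% overlaps Slc5a3 on the same strand, was at 23.4, 17.9, 16.9, 17.1 and 18.02 CPM against 20.4, 24.4 and 28.1 CPM, a log2 difference of 0.36 ± 0.106 (DESeq2 adjusted p = 0.0631). In both genes the overlap came again from SFN-fed ConAstro replicate 1, and without the 2 doubted libraries the log2 fold changes were 0.43 for Mrps26 and 0.45 for Mrps6. Mrps27, a small-subunit protein with pentatricopeptide repeats, with 22.6% of its transcript overlapping another gene on the other strand, stood at 13.7 ± 0.632 CPM (SD, n = 5) in SFN-fed ConAstro and 15.9 ± 0.958 CPM (n = 7) in SFN-fed cKOAstro. It differed by 0.22 ± 0.068 on the log2 scale (DESeq2 adjusted p = 0.0359).

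In the large subunit, Mrpl51, also without a bacterial counterpart, was at 25.7, 21.7, 24.98, 26.7 and 20.9 CPM in SFN-fed ConAstro and at 26.2, 30.6 and 37.1 CPM (lowest, median and highest) in SFN-fed cKOAstro, so that the groups overlapped only slightly. The log2 difference was 0.39 ± 0.096 (DESeq2 adjusted p = 0.0338). Mrpl2, the counterpart of a bacterial protein next to the catalytic centre, was at 25.6, 25.9, 25.4, 24.6 and 23.8 CPM against 25.5, 31.2 and 35.5 CPM, a log2 difference of 0.30 ± 0.079 (DESeq2 adjusted p = 0.0409). For Mrpl9, the most abundant member in CPM, with 9.74% of its transcript overlapping Oaz3 on the other strand, the values were 53.2, 43.4, 49.7, 50.2 and 43.6 CPM against 53.5, 56.8 and 62.8 CPM, with no overlap and a log2 difference of 0.25 ± 0.065 (DESeq2 adjusted p = 0.0359). Mrpl37 was the tightest of these genes, at 29.5, 29.04, 29.8, 29.8 and 28.5 CPM against 30.7, 33.9 and 35.5 CPM, again with no overlap and a log2 difference of 0.19 ± 0.051 (DESeq2 adjusted p = 0.0135). Mrpl41 had the largest log2 difference, 0.67 ± 0.207 (DESeq2 adjusted p = 0.0653), between 27.0, 22.2, 20.3, 23.8 and 20.2 CPM and 21.9, 37.2 and 50.2 CPM. Its SFN-fed cKOAstro replicates 3 and 7 lay inside the range of SFN-fed ConAstro and the others above it.

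The members picked for what their proteins do gave unequal values. Mrpl12, which forms part of the ribosomal stalk and also binds the mitochondrial RNA polymerase, differed by 0.25 ± 0.090 on the log2 scale (DESeq2 adjusted p = 0.105), and its SFN-fed cKOAstro replicate 1 (48.2 CPM) stood above the other 6 libraries of that group (33.6 to 36.9 CPM). Mrps12, at the decoding centre, differed by 0.29 ± 0.093 (DESeq2 adjusted p = 0.0770). Of the 3 paralogs of 1 bacterial protein, the log2 difference was 0.33 ± 0.103 for Mrps18c, 0.22 ± 0.090 for Mrps18a and 0.076 ± 0.098 for Mrps18b (edgeR adjusted p = 0.195, adjusted p = 0.212 and adjusted p = 0.676). Mrps30 differed by 0.049 ± 0.079 and Mrps36, which is not a ribosomal protein, by 0.24 ± 0.112 (edgeR adjusted p = 0.743 and adjusted p = 0.248). The 20 members with p of 0.05 or more were Mrpl1, Mrpl3, Mrpl10, Mrpl13, Mrpl16, Mrpl23, Mrpl33, Mrpl47, Mrpl52, Mrpl54, Mrpl55, Mrpl57, Mrps2, Mrps5, Mrps14, Mrps16, Mrps18b, Mrps30, Mrps33 and Mrps36. The 15 members that share exon bases with another gene of the table had a median log2 fold change of 0.25, the 62 that share none 0.22.

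**Figure D3:**
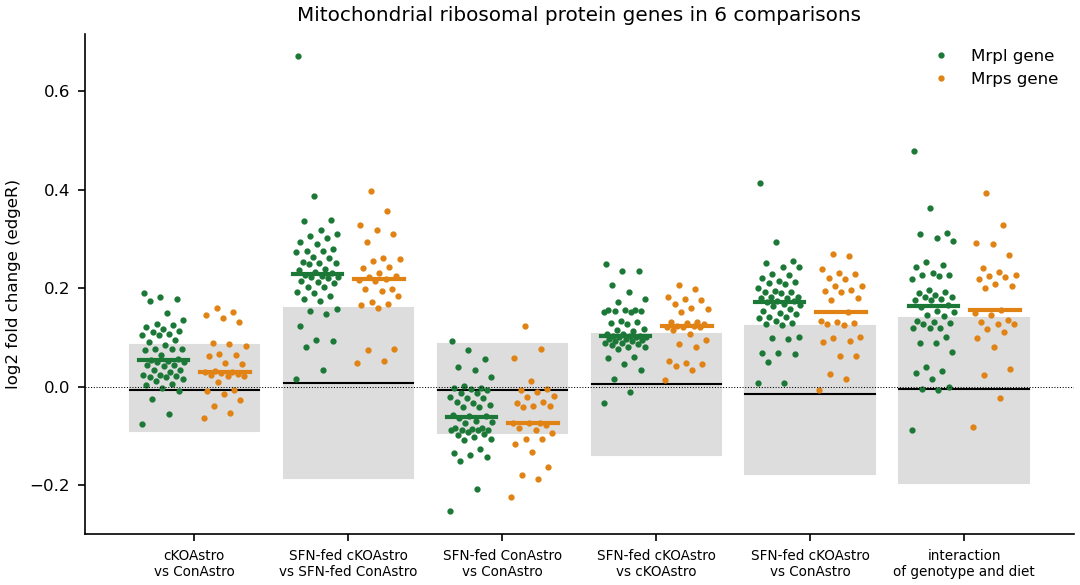
Fitted edgeR log2 fold change of each of the 77 members (points, Mrpl and Mrps apart) in the 6 comparisons; coloured lines are the medians of Mrpl and Mrps genes, and black lines and grey boxes the median and quartiles of all genes tested. All 77 points of SFN-fed cKOAstro against SFN-fed ConAstro lie above 0, from 0.016 to 0.67, while those of SFN-fed ConAstro against ConAstro lie mostly below it.

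Since the genes were high or low together, their promoters were read from RefSeq, from 250 bases before to 50 after each transcription start on GRCm38.p6; 68 of the 77 members had an entry. Letters known from regulators of mitochondrial genes were looked for on both strands. GCGCATGCG, bound by NRF1 (nuclear respiratory factor 1, a different protein from NRF2), was in 7 of 68 (10.3%) against 3.36% of the 12926 tested genes with an entry and 1.95% of all 27025 promoters. CCGGAAG, bound by ETS factors such as GABPA, was in 25 (36.8%) against 16.3% and 9.93%. AAGATGGCG, bound by YY1, was in 8 (11.8%) against 2.82% and 1.64%. TGACNNNGC, the core of the antioxidant response element to which NRF2 binds, was in 13 (19.1%) against 16.5% and 13.99%, and GGGCGG, bound by SP1, in 34 (50%) against 62.6% and 38.2%. The NRF1 letters were in 6 of 42 Mrpl and 1 of 26 Mrps promoters. These are matches of letters in a window and were not tested further. The last 120 bases before the start are shown for Mrpl9, Mrps26, Mrps27 and Mrpl22, which are among the 10 genes DESeq2 called and between them carry NRF1, ETS, SP1 and antioxidant response letters, and for Mrps11, which overlaps the member Mrpl46 at its 5′ end. All 5 lie on the plus strand, at chr3:94443216-94443335, chr2:130563637-130563756, chr13:99344666-99344785, chr11:58171544-58171663 and chr7:78783011-78783130 in that order. Capitals mark the motif letters on either strand, and positions count back from the base before the start: NRF1 at -28 and, overlapping on the other strand, -27 in Mrpl9, SP1 at -63 and ETS at -14 in Mrps26, ETS at -48 in Mrps27, antioxidant response element at -80, ETS at -53 and NRF1 at -33 in Mrpl22, YY1 at -108 and SP1 at -16 in Mrps11.
Mrpl9: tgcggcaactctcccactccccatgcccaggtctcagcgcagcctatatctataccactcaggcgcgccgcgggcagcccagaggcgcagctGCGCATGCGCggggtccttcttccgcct
Mrps26: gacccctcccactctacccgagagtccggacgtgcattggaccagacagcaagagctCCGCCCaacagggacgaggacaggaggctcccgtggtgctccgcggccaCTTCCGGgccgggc
Mrps27: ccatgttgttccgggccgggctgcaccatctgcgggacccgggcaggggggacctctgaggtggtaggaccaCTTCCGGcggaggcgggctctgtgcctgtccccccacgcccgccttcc
Mrpl22: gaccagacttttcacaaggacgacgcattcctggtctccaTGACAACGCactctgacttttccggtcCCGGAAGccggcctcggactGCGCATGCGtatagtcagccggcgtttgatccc
Mrps11: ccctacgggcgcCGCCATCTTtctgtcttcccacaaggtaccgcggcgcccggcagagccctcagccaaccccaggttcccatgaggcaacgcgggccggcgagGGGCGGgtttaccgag

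Many of the genes start close to a gene on the other strand. A protein-coding start on the opposite strand lay within 1000 bp for 31 of 77 members (40.3%) against 2018 of 15480 protein-coding genes tested (13.0%). The genes diverged from each other in 18 of these cases (23.4% of members against 8.33% of the tested genes) and overlapped at their 5′ ends in the other 13 (16.9% against 4.70%). Among the diverging ones, Mrps12 starts 172 bp from Sars2, the mitochondrial seryl-tRNA synthetase, and Mrpl49 starts 59 bp from Fau, which encodes a cytosolic ribosomal protein. Among the overlapping ones, the starts of Mrpl46 and Mrps11, members of different subunits, are 412 bp apart, and those of Mrpl36 and Mrpl47 lie 29 and 615 bp from the starts of the complex I genes Ndufs6 and Ndufb5. Whether such pairs share a promoter was not tested. The 77 genes are scattered over the genome, with 10 on chromosome 11, 8 on chromosome 17, 7 on chromosome 6 and 6 on chromosome 7 at most.

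Members of this family are mostly short, with a median transcript of 1.29 kb (0.418 to 7.3 kb), and length moved with the contrast. Between the SFN-fed groups, the median log2 fold change of other protein-coding genes was lower the longer the transcript: 0.19 under 1 kb, 0.13 from 1 to 2 kb, 0.024 from 2 to 4 kb and -0.12 over 4 kb. For the members in the same classes it was 0.26 (25 genes), 0.22 (28), 0.17 (15) and 0.24 (9). The gap between members and other genes was smallest under 1 kb and largest over 4 kb, where 9 of 9 members were higher against 27.97% of the other genes. In single libraries, the difference between genes under 1 kb and over 4 kb, as medians of log2 deviations, was 0.61, 0.22 and 0.30 in SFN-fed cKOAstro replicates 1, 2 and 4, and -0.12 to 0.11 in the other 4. It lay between -0.27 and 0.011 in SFN-fed ConAstro, between -0.18 and 0.098 in ConAstro, and between -0.19 and 0.086 in cKOAstro. When the length trend of each library was taken out as an offset, 72 of 77 members were higher, 23 had an unadjusted edgeR p under 0.05 and the median was 0.12, against 0.021 for all genes (lowest adjusted p = 0.262), and 9.82% of all genes were higher at that p in the same fit. Mrps26, with a transcript of 4.28 kb, then differed by 0.48, Mrpl51 by 0.42 and Mrps7 by 0.25 on the log2 scale. How far RNA quality contributed to the length trend was not tested.

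**Figure D4:**
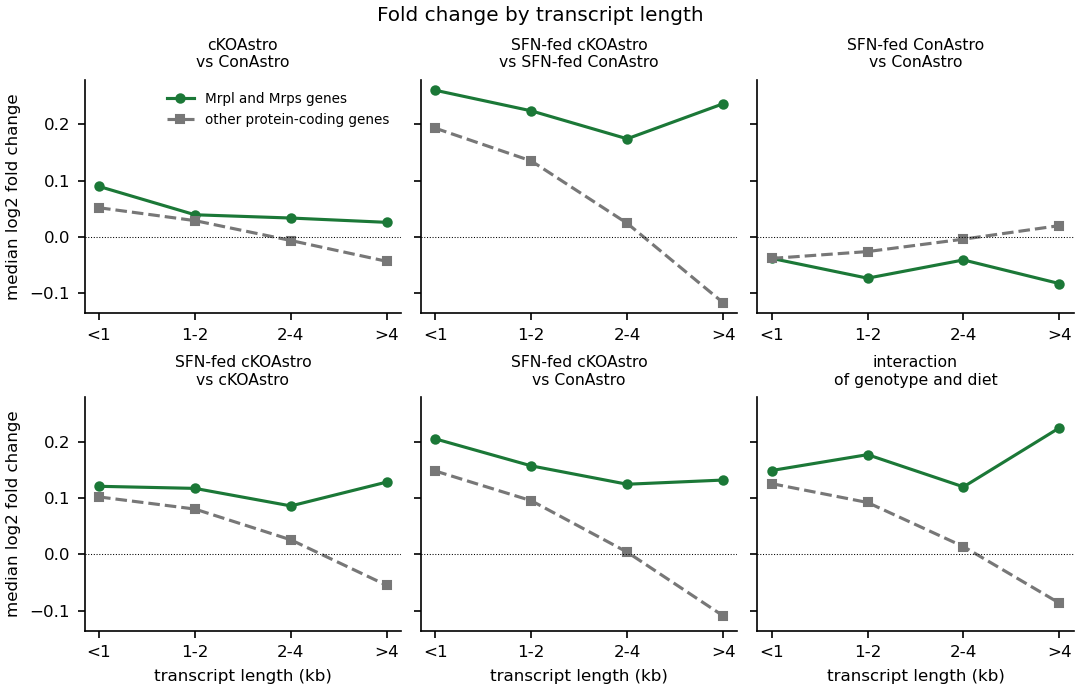
Median log2 fold change by transcript length class (under 1, 1 to 2, 2 to 4 and over 4 kb) for the members and for all other protein-coding genes tested, in each of the 6 comparisons. Between the SFN-fed groups the other genes go from 0.19 to -0.12 with length, and the members stay between 0.17 and 0.26.

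On the control diet, the genotype difference was small. Of the 77 genes, 65 were higher in cKOAstro than in ConAstro, with a median log2 fold change of 0.055 for Mrpl (43 of 48 higher) and 0.031 for Mrps genes (22 of 29), against -0.007 for all genes. No member passed edgeR's test (adjusted p of 0.981 or more, where 0.023% of all genes were called) or DESeq2 (0.0461% called). At an unadjusted p under 0.05, 2 were higher, Mrps34 (0.16 ± 0.067) and Mrpl14 (0.17 ± 0.079), and 0 lower, and 1.71% of all genes were higher by that rule. Mrps34 stood at 28.5, 29.5, 28.3 and 30.3 CPM in ConAstro and at 28.8, 32.3 and 36.3 CPM (lowest, median and highest) in cKOAstro, so that the ranges overlapped. The next Mrpl members by p were Mrpl27 (0.15 ± 0.077), Mrpl10 (0.090 ± 0.047) and Mrpl52 (0.18 ± 0.093), and the next Mrps members Mrps15 (0.13 ± 0.064), Mrps24 (0.14 ± 0.076) and Mrps18b (0.15 ± 0.087). The count of 2 became 14 without cKOAstro replicate 1, 4 without ConAstro replicate 3, 1 without cKOAstro replicate 5, 6 or 7, and 0 without ConAstro replicate 1 or 2 or cKOAstro replicate 3 or 4. Beside this, 8 of 8 neuron markers (median 0.33) and 4 of 4 fibroblast markers (0.17) were higher in cKOAstro, and 0 of 5 endothelial (-0.39), 0 of 6 microglia (-0.21) and 0 of 8 dissociation response genes (-0.099) were. Their part was not tested. All 4 ConAstro libraries carry 1 series number in their names that no cKOAstro library carries, so whatever that number stands for cannot be told apart from genotype on this diet.

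In control mice, SFN went with slightly lower levels. Only 11 of 77 genes were higher in SFN-fed ConAstro than in ConAstro, and the median log2 fold change was -0.062 for Mrpl and -0.073 for Mrps genes, against -0.005 for all genes. No member passed edgeR's test (adjusted p of 0.762 or more, 0% of genes called) or DESeq2 (0.146% called). At an unadjusted edgeR p under 0.05, 5 members were lower, where 3% of all genes were, and 0 higher, where 3.54% were. They were Mrpl28 (-0.14 ± 0.052), Mrpl34 (-0.21 ± 0.085), Mrpl41 (-0.25 ± 0.108), Mrps26 (-0.16 ± 0.063) and Mrps25 (-0.13 ± 0.059). Mrpl28, Mrpl33 and Mrpl37 did not overlap between the groups, all lower with SFN, as did 0.921% of all genes. Mrpl37 stood at 30.2, 31.8, 30.5 and 31.5 CPM in ConAstro, above all 5 SFN-fed ConAstro libraries (28.5 to 29.8 CPM), with a log2 difference of -0.087 ± 0.043. Without SFN-fed ConAstro replicate 1, which goes against its label, 11 members were lower at an unadjusted p under 0.05 and the median of all 77 was -0.079. Here 5 of 5 endothelial (median 0.57), 4 of 4 fibroblast (0.50) and 6 of 6 microglia markers (0.22) were higher with SFN, and their part was not tested. The count was 1 without SFN-fed ConAstro replicate 2, 2 without SFN-fed ConAstro replicate 5 or ConAstro replicate 3 or 4, and 3 without SFN-fed ConAstro replicate 3 or 4. The series number in the names of all ConAstro libraries is in no SFN-fed ConAstro name. Whatever that number stands for cannot be told apart from diet in control mice.

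In knockout mice the sign was the opposite. Of the 77 genes, 75 (all but Mrpl1 and Mrpl47) were higher with SFN than without, with a median log2 fold change of 0.10 for Mrpl and 0.12 for Mrps genes, against 0.006 for all genes. No member passed edgeR's test (adjusted p of 0.459 or more, 0% of genes called) or DESeq2 (0.0889% called). At an unadjusted edgeR p under 0.05, 11 members were higher, where 5.38% of all genes were, with the lowest p for Mrps7 (0.21 ± 0.070), Mrpl20 (0.25 ± 0.087), Mrpl51 (0.23 ± 0.088) and Mrpl24 (0.21 ± 0.077), of whose transcript 43.6% overlaps Rrnad1 on the other strand. Mrpl20 ranged from 23.9 over a median of 26.2 to 29.8 CPM in cKOAstro and from 25.7 over 31.0 to 38.2 CPM in SFN-fed cKOAstro, so that the groups overlapped. The count of 11 became 27 without SFN-fed cKOAstro replicate 3, 19 without SFN-fed cKOAstro replicate 7, 17 without cKOAstro replicate 4, 6 without SFN-fed cKOAstro replicate 1, 2 or 4, and 4 without cKOAstro replicate 1. SFN-fed cKOAstro replicate 2 is 1 of the 2 libraries against their labels. The count was 2 in the libraries with numbered names alone (median of all members 0.10), and the transcript-length offset moved that median from 0.12 to 0.072. The numbered cKOAstro and SFN-fed cKOAstro libraries share no series number, so in them whatever the numbers stand for cannot be told apart from diet. Of the markers, 6 of 6 oligodendrocyte (median 0.32) and 5 of 5 endothelial (0.38) were higher with SFN, and 0 of 5 mural (-0.40), 0 of 4 fibroblast (-0.37) and 0 of 5 ependymal and choroid plexus markers (-0.48) were. Their part was not tested.

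SFN-fed cKOAstro was also set against untreated ConAstro, the comparison that asks how far the treated knockout stands from the untreated control. In SFN-fed cKOAstro, 76 of 77 members (all except Mrps2) were higher, with a median log2 fold change of 0.17 for Mrpl and 0.15 for Mrps genes, against -0.014 for all genes. No member passed edgeR's test (adjusted p of 0.557 or more, 0% of genes called) or DESeq2 (0.048% called), and limma-voom called Mrps7 and Mrps34 (3.92% of all genes called). At an unadjusted edgeR p under 0.05, 16 members were higher, where 4.01% of all genes were. Mrps34 and Mrpl46 did not overlap between the groups, as was the case for 1% of all genes in this direction. Mrps34 lay at 28.5, 29.5, 28.3 and 30.3 CPM in ConAstro and at 31.9, 34.7 and 43.3 CPM (lowest, median and highest) in SFN-fed cKOAstro, a log2 difference of 0.27 ± 0.084 (edgeR adjusted p = 0.557). Mrps7 differed by 0.24 ± 0.074, with the same adjusted p. The count of 16 became 33 without SFN-fed cKOAstro replicate 3, 30 without replicate 7 and 9 without replicate 2 of that group, and 8 and 7 without ConAstro replicates 1 and 2. It was 3 in the libraries with numbered names alone. With the transcript-length offset the median of all members was 0.089 in place of 0.17. Here 6 of 6 oligodendrocyte (median 0.32) and 8 of 8 neuron markers (0.26) were higher in SFN-fed cKOAstro and 0 of 6 microglia markers (-0.45) were, and their part was not tested.

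Whether the diet difference itself differed between genotypes was tested as an interaction in a fit of all 4 groups. The interaction was positive for 71 of 77 genes, with a median of 0.16 on the log2 scale for Mrpl and for Mrps genes, against -0.004 for all genes. No member passed edgeR's test (adjusted p of 0.673 or more, 0% of genes called) or DESeq2 (0.0174% called). At an unadjusted edgeR p under 0.05, 16 members were positive, where 4.36% of all genes were. The lowest p values were those of Mrps7 (0.27 ± 0.091), Mrps6 (0.39 ± 0.136), Mrps25 (0.29 ± 0.101) and Mrps26 (0.33 ± 0.117), and in the large subunit of Mrpl51 (0.36 ± 0.128), Mrpl24 (0.30 ± 0.109), Mrpl34 (0.31 ± 0.122) and Mrpl28 (0.31 ± 0.123). Without ConAstro replicate 3 the count of 16 became 9, and without the 2 libraries against their labels it was 19. The interaction was positive for 6 of 6 oligodendrocyte markers (median 0.28) and for 0 of 5 mural (-0.62), 0 of 4 fibroblast (-0.92), 0 of 6 microglia (-0.41) and 0 of 5 endothelial markers (-0.28), and their part was not tested. The comparisons share libraries with each other, so their directions are not independent of one another.

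Other genes of mitochondrial translation were read from lists set by function, here between the SFN-fed groups. In this contrast 11.4% of all genes tested were higher at an unadjusted edgeR p under 0.05. The 6 mitoribosomal proteins with other names were all higher (median log2 fold change 0.27, 5 at an unadjusted edgeR p under 0.05), among them Gadd45gip1 (0.31 ± 0.085), Dap3, a GTP-binding protein of the small subunit (0.23 ± 0.067), and Chchd1 (0.31 ± 0.093). Of the 12 translation factors, 9 were higher (median 0.095, 3 at p under 0.05), with the elongation factors Tufm (0.24 ± 0.071) and Tsfm (0.31 ± 0.108) and the initiation factor Mtif3 (0.24 ± 0.105) having the lowest p. Of the 20 assembly and ribosomal RNA factors, 15 were higher (median 0.10, 4 at p under 0.05), led by Ngrn (0.22 ± 0.080), the GTPase Mtg2 (0.25 ± 0.099) and the rRNA methyltransferase Rnmtl1 (0.23 ± 0.106). Of the 17 mitochondrial aminoacyl-tRNA synthetases, 13 were higher (median 0.13, 4 at p under 0.05 and 1 lower at p under 0.05), led by Aars2 (0.22 ± 0.068), and of the 11 genes for transcription and replication of mitochondrial DNA, 9 were higher (median 0.14, 2 at p under 0.05), including the mitochondrial RNA polymerase Polrmt (0.15 ± 0.069). The 9 regulators of mitochondrial biogenesis did not share this direction, with 3 higher and a median of -0.10: Esrra, a nuclear receptor for mitochondrial genes, was higher (0.28 ± 0.095, edgeR adjusted p = 0.195) and its coactivator Ppargc1a lower (-0.30 ± 0.131, edgeR adjusted p = 0.235). No gene of these lists passed edgeR's test after adjustment. DESeq2 called 1, among the mitoribosomal proteins with other names, and 1.51% of all genes with an adjusted p.

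The ribosomal proteins of the cytosol and the nuclear-encoded subunits of oxidative phosphorylation were read in the same way. Between the SFN-fed groups, 76 of 76 oxidative phosphorylation genes (median 0.21, 43 at an unadjusted p under 0.05) and 80 of 81 cytosolic ribosomal protein genes (median 0.20, 13 at p under 0.05) were higher, beside 77 of 77 mitoribosomal genes (median 0.22, 57 at p under 0.05). By the same rule 11.4% of all genes tested were higher. In control mice, SFN-fed animals had a median of -0.066 for oxidative phosphorylation (9 of 76 higher), 0.002 for cytosolic ribosomal proteins (41 of 81 higher) and -0.064 for mitoribosomal genes (11 of 77 higher). In knockout mice the SFN medians were 0.11, 0.16 and 0.12 in the same order. The direction seen in the mitoribosomal genes was thus also that of both other families in SFN-fed cKOAstro, and a difference between the families was not tested.

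**Figure D5:**
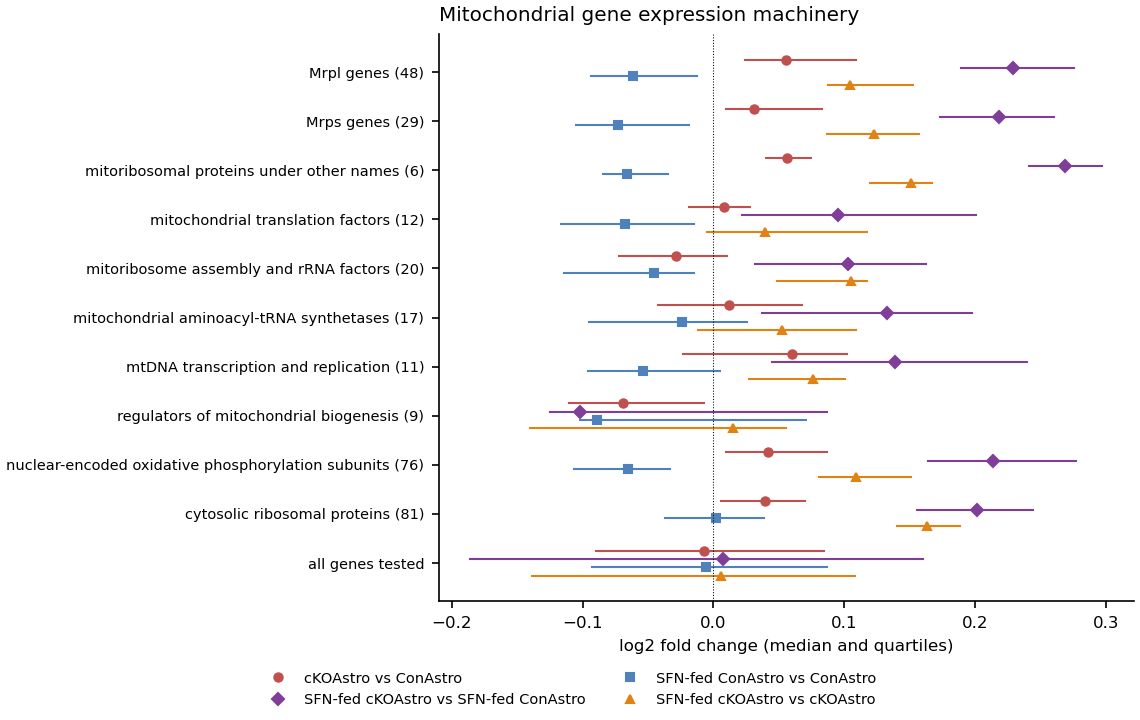
Median (symbol) and quartiles (line) of the log2 fold change of the Mrpl and Mrps genes, the other lists of mitochondrial translation, oxidative phosphorylation, cytosolic ribosomal proteins and all genes tested, in 4 comparisons marked by colour. Between the SFN-fed groups the medians of Mrpl (0.23), Mrps (0.22), oxidative phosphorylation (0.21) and cytosolic ribosomal proteins (0.20) lie together above 0 and that of the biogenesis regulators at -0.10.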

How the data were processed

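Poly(A) RNA of MACS-isolated cortical astrocytes was sequenced in paired ends, 1 library per mouse. The deposited table holds raw read counts per gene symbol for 23 libraries, made by the authors with STAR and its own gene counts on mm10. The STAR version, the annotation and the strand column taken were not given in the sources used here. Library totals were 46890715 to 391701247 counts. No 2 libraries agreed within sampling noise (chi-square over degrees of freedom was at least 44.1 for any pair within a group).

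Groups followed the sample titles. Each comparison was fitted on its own libraries, and the interaction on all, with edgeR 4.0.16 in R 4.3.3 (TMM, filterByExpr with a minimum count of 10 and a minimum total of 15, quasi-likelihood test, Benjamini-Hochberg over all genes tested, threshold 0.05). The study used DESeq2, here an alternative (1.42.0). Further alternatives were limma-voom (3.58.1), RLE size factors, no low-count filter, all groups in 1 fit, thinned counts and the replicate block. Numbered libraries alone, subunit assignment by structure, and a covariate for numbered against other library names were also used. The single series numbers were not fitted. The 2 libraries against their labels, or each library in turn, were left out as well. A transcript-length offset was added after seeing the data. All 77 members passed the filter in every comparison. CPM are edgeR values on TMM library sizes. The fit was checked on simulated counts. Lengths, overlaps and coordinates came from GENCODE M21 and promoters from RefSeq, both on GRCm38. Members and lists were chosen with earlier results of these data known. Named with values were the 4 Mrpl and 4 Mrps genes of lowest p in each comparison, the 3 highest and lowest per length, members fixed for their roles and any member called, together with up to 3 genes of each other list. Mrpl58 is in the table as Ict1 and was read with the proteins of other names.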

Additional observations from a re-analysis of the deposited data

Results flagged for a closer look

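Single libraries stood apart from the rest of their group for 13 of 164 tests in groups of 4 to 7 libraries, which covered the 39 genes chosen by the naming rule, mostly for low p, and the 2 summed levels in each group, not all 77 members, by the gap to the nearest library over the group's range (Dixon's test at 95%, which chance passes in about 1 group in 20). The SFN-fed ConAstro library that goes against its Aldh7a1 label, replicate 1, was the highest of its group for Mrpl20 (31.24 CPM against 24.6 to 25.6), Mrpl24 (32.09 against 26.3 to 27.1), Mrps28 (9.608 against 8.84 to 8.99) and Mrps6 (23.38 against 16.9 to 18.02). SFN-fed cKOAstro replicate 1, where short genes were highest against long ones, was the highest of its group for Mrpl12 (48.18 CPM against 33.6 to 36.9) and Mrps24 (34.2 against 21.8 to 26.1). Replicate 1 of cKOAstro was the lowest of its group for Mrpl28 (27.91 CPM against 32.5 to 35.1) and Mrps18c (11.97 against 13.8 to 15.2). Mrpl41 was apart in ConAstro replicate 3 (31.3 CPM against 25.03 to 25.5) and cKOAstro replicate 2 (52.46 against 24.3 to 32.6). The remaining values were Mrpl42 in ConAstro replicate 4 (22.62 CPM against 20.6 to 20.8), Mrpl46 in ConAstro replicate 3 (14.3 against 13.6 to 13.7) and Mrps18a in SFN-fed ConAstro replicate 5 (18.46 against 21.6 to 22.7).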

How the results depend on the processing

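The members' median log2 fold change kept its sign in each comparison under every alternative. Over the alternatives other than leaving out single libraries it ranged from 0.12 to 0.26 for SFN-fed cKOAstro against SFN-fed ConAstro, 0.037 to 0.073 for cKOAstro against ConAstro, -0.079 to -0.034 for SFN-fed ConAstro against ConAstro, 0.072 to 0.12 for SFN-fed cKOAstro against cKOAstro, 0.089 to 0.22 for SFN-fed cKOAstro against ConAstro and 0.11 to 0.18 for the interaction. Between the SFN-fed groups, the number of members called was 0 with edgeR, 10 with DESeq2 and 51 with limma-voom, 0 to 6 when 1 library was left out (6 without SFN-fed cKOAstro replicate 3), and 0 without the 2 libraries against their labels. The transcript-length offset, chosen after seeing the data, moved the medians to 0.123 (Mrpl) and 0.102 (Mrps). Leaving out 1 library gave medians of all members from 0.19, when SFN-fed cKOAstro replicate 1 was dropped, to 0.26, when replicate 3 was, and 38 (without SFN-fed ConAstro replicate 5) to 59 members at an unadjusted p under 0.05. Limma-voom called 2 members in SFN-fed cKOAstro against ConAstro. Directions of single members turned as well. Between the SFN-fed groups these included Mrps18b without the 2 libraries against their labels (-0.000463) and with the length offset (-0.062). Mrpl23 turned with the length offset (-4.65e-05) and Mrpl1 in numbered libraries alone (-0.0018). There 77 members were higher in the main fit, 72 with the length offset and 75 with limma-voom. Over the alternatives other than leaving out single libraries, 53 to 69 were higher in cKOAstro against ConAstro (65 in the main fit). The numbers were 9 to 19 for SFN-fed ConAstro against ConAstro (11) and 69 to 74 for the interaction (71). Apart from the length offset, the cause of these moves was not tested.

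Of 29 pairs of libraries with the same replicate number in different groups, 8 correlated above 0.1 in their deviations (median r = -0.014). Pairs with different numbers were not set beside them, so this cannot show whether libraries shared a litter or a day. A fit with the replicate block called 0 members in each comparison, with a median of 0.26 and 45 members at an unadjusted p under 0.05 between the SFN-fed groups. The lowest count of a member was 106, and with all libraries thinned to the smallest total the median between the SFN-fed groups was 0.23 with 52 members at an unadjusted p under 0.05. Strand of counting was not given in the sources used here. How reads on the exon bases that 15 members share with another gene were counted was not tested. For Mrpl51 and Mrps6 that gene lies on the same strand, so strand would not separate them.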
